A study of Homo sapiens with 6 samples.

Results

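The 54 genes described here were induced by active p53 and had returned most or all of the way to control 6 h after p53 was switched off. They were chosen by a rule on the arrays themselves, from 18701 genes measured and 14018 tested. A gene's value was the median log2 signal of the probe sets that carry its symbol alone, and its mean over all 6 arrays had to lie above 3.62. In each of the 2 experiments, p53 on minus p53 off had to be at least 1 on the log2 scale, a doubling, and recovery minus p53 off had to be under 25% of that rise. This second quantity is called the share of the rise left. Of 197 genes with a rise of at least 1 in both experiments, 77 met the limit on the share left. The rule then left out 27 named genes, mostly familiar p53 targets such as MDM2 and CDKN1A, of which 23 had met it. Because the rule used both group differences in both experiments, the members' rises and falls are given as a description and are no evidence of their own.

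The cell line, HT29-tsp53, derives from HT-29, a human line from a colorectal adenocarcinoma, and expresses a temperature-sensitive p53 transgene from mouse. This p53 works at 32 °C and is switched off by warming. Every group carried the transgene. The 3 groups had 2 arrays each, 1 from each experiment: p53 off, kept at the restrictive temperature and called control here, p53 on, after 16 h at 32 °C, and p53 on then off, after 16 h at 32 °C and 6 h of recovery. For the restrictive temperature the sample fields name 38 °C, the protocols name 37 °C, and 1 field of the recovery samples names 32 °C for the last 6 h. No label says whether the cells were a single clone or what drives the transgene. No cells without the transgene were analysed here, so active p53 and the lower temperature cannot be told apart. Nothing beyond the experiment number says how separate the replicates are, so p-values measure the spread between these arrays, which may be technical.

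As background, p53 is a transcription factor that binds a repeated 10-base motif and raises transcription of genes for cell cycle arrest, cell death, DNA repair and its own degradation. The level of a transcript is set by its synthesis and its decay together. The study's title names mRNA decay in p53-induced expression, and these arrays measured levels, not decay rates.

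The arrays had medians between 5.24 and 5.31 log2 units and correlated at 0.911 to 0.975 across genes. Of 12 colon epithelium markers, 11 lay above 3.62 in control and 10 with p53 on, where GPA33 joined CDH17 below it. KRT8, KRT18 and LGALS4 were at 9.64 or more on every array, and CDH17, a defining cadherin of intestinal epithelium, at 2.71 or less. The mean level of the colon markers was 7.84 and 7.61 with p53 on and 7.81 and 7.50 in control. Fibroblast markers averaged 3.82 and 3.68 with p53 on and 3.76 and 3.67 in control, and leukocyte markers 5.21 and 4.89 with p53 on and 4.98 and 4.91 in control. After recovery the 3 lists averaged 7.72 and 7.53, 3.74 and 3.74, and 5.19 and 5.11. The leukocyte list was uneven: the lysozyme gene LYZ was at 10.81 to 11.52 and CD68, a lysosomal protein of macrophages, at 5.72 to 6.65, while PTPRC, the common leukocyte antigen, was at 2.05 or less on every array. The part of these levels in the members' values was not tested.

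The median member stood at a mean log2 signal of 5.44 with p53 off, 7.15 with p53 on and 5.64 after recovery. Rises ran between 1.00 and 3.15 in experiment 1, with a median of 1.51, and between 1.07 and 2.68 in experiment 2, with a median of 1.37. Both p53 on arrays lay above both control arrays and above both recovery arrays in all 54 members. The rule nearly fixes this separation, which was not counted over all genes tested, so it is no result about the members. The limma fit without the replicate block called 34 of the 54 higher with p53 on, where 0.899% of all genes tested were called higher, and 54 with the block, where the share was 5.18%. Recovery was called lower than p53 on for 16 members, against 0.285% of all genes, and for 54 with the block, against 3.39%. It was called higher for 0 members in either fit, against 0.143% of all genes and 3.85% with the block. Recovery minus control was called for 0 members in either direction and in either fit, with unadjusted p under 0.05 for 0 and, with the block, 2 members. All genes tested were called higher in 0.0285% and lower in 0% without the block, and in 0.207% and 0.392% with it. Fewer members were called in both comparisons with p53 on when any 1 array was left out, which leaves 1 array in a group. The counts above follow from the choice of members, and nothing is read from them.

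**Figure D1:**
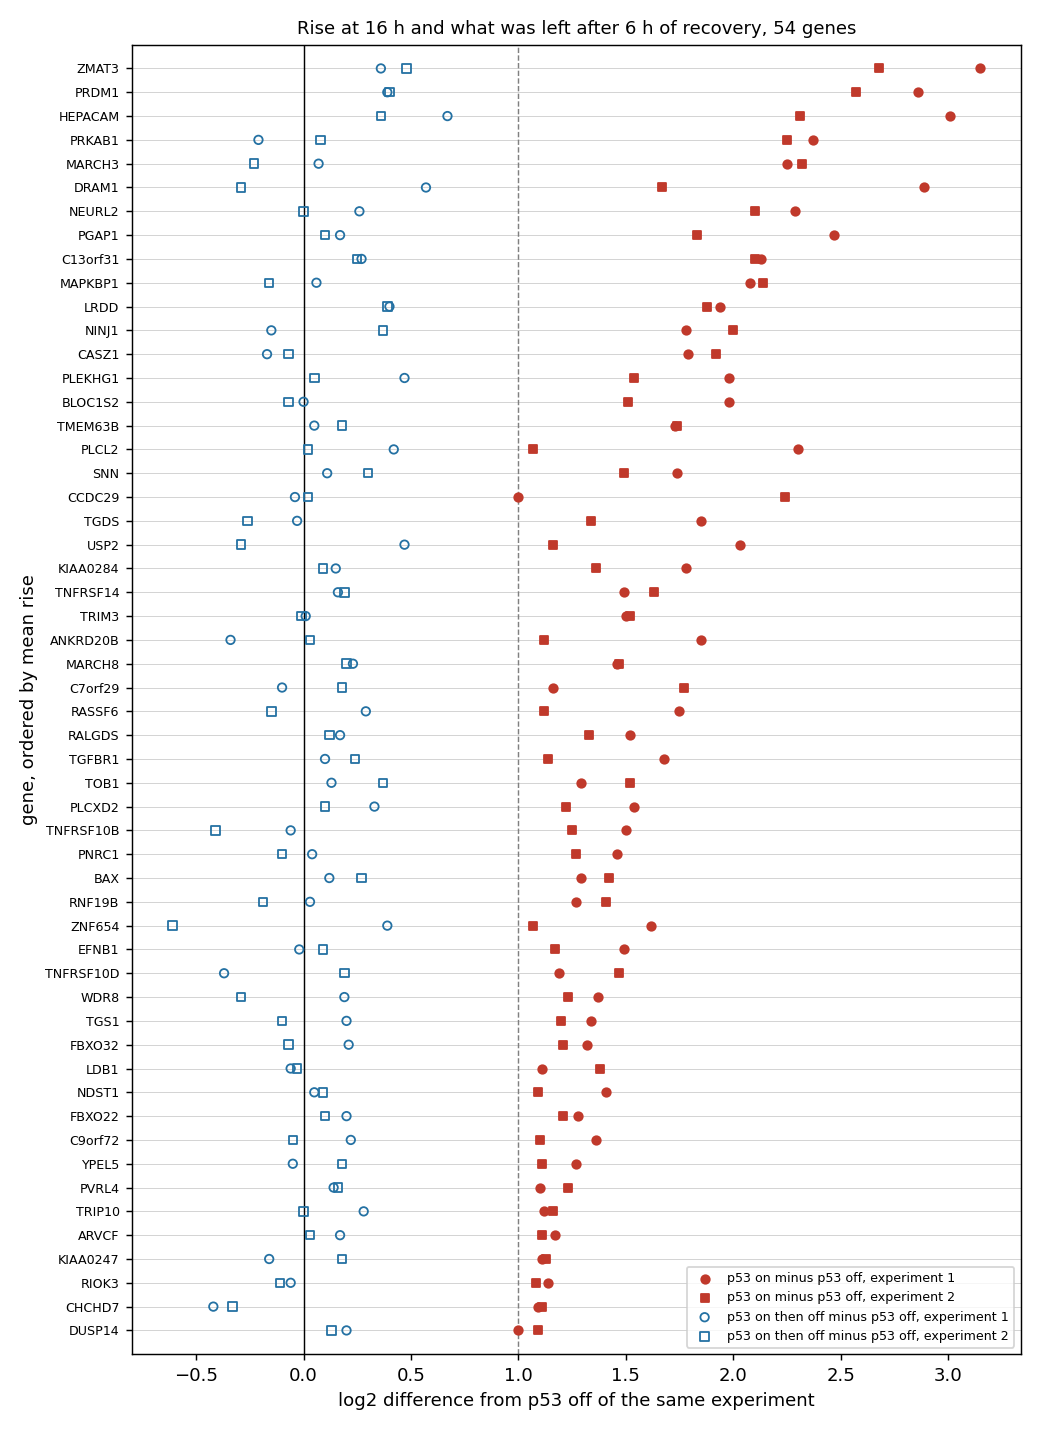
Each row is 1 gene, ordered by its mean rise, and the horizontal axis is the log2 difference from the control array of the same experiment. Red filled points are p53 on minus control and blue open points are recovery minus control, as circles for experiment 1 and squares for experiment 2; red points reach 3.15, and blue points gather around 0.

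The share left had a median of 5.9% over the members, with quartiles of -2.3% and 12.3% and extremes of -33.9% for CHCHD7 and 20.7% for LRDD. On the linear signal scale the median was 3.3%. Recovery lay above control in both experiments for 23 members, below control in both for 6, and on different sides of control for 25. For 47 members the mean after recovery was within 0.25 log2 units of control. At the edge of the rule, the smallest rises inside it were 1.00 and 1.09 for DUSP14, 1.00 and 2.24 for CCDC29, and 1.62 and 1.07 for ZNF654 in experiments 1 and 2. Just outside were TMEM68 at 1.29 and 0.99, DES at 0.99 and 1.34, and CSPG4 at 0.99 and 1.66. The largest shares left inside were 24.8% for TRIP10 in experiment 1, 24.3% for TOB1 in experiment 2 and 23.9% for ZNF654 in experiment 1. Just outside, MR1 had 22.7% and 25.2%, DGKA 25.2% and -3.0%, and ZNF468 26.0% and 8.0%.

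**Figure D2:**
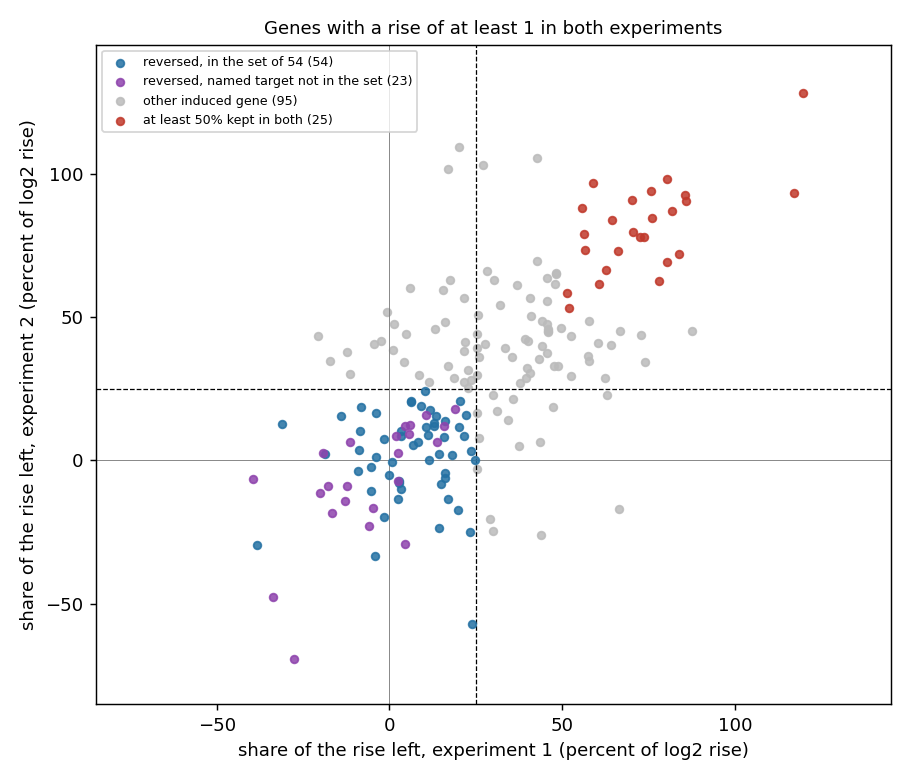
Each point is 1 of the 197 genes with a rise of at least 1 in both experiments; the axes give the share of the log2 rise left after recovery in experiment 1 and experiment 2, and dashed lines mark 25%. The 54 members in blue and the 23 named targets in purple fill the lower left by the rule, while 25 genes in red kept at least 50% in both experiments and 95 others are grey.

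The members with a known part in cell death and autophagy numbered 7, with mean rises between 1.33 and 2.28. This and the other groupings by function were made after the members' values were known. DRAM1, a lysosomal membrane protein that promotes autophagy, had log2 signals of 5.92 and 7.04 with p53 off, 8.81 and 8.71 with p53 on, and 6.49 and 6.75 after recovery. Its control arrays differed by more than a log2 unit, and the rise was 2.89 in experiment 1 and 1.67 in experiment 2. LRDD, named PIDD1 in RefSeq, encodes the death domain protein that activates caspase-2, and it stood at 5.57 and 5.49 with p53 off, 7.51 and 7.37 with p53 on, and 5.97 and 5.88 after recovery. It kept the largest mean share of any member, with 20.5% and 20.8% left in the experiments. NINJ1 is a surface protein that drives rupture of the plasma membrane in dying cells. It stood at 6.21 and 5.91 with p53 off, 7.99 and 7.91 with p53 on, and 6.06 and 6.28 after recovery. Only 3 of its 6 probe sets rose by at least 1. With the mean of its probe sets in place of the median, NINJ1 rose by 1.15 and 1.38 in experiments 1 and 2. These 3 genes rose by 2.28 ± 0.36, 1.91 ± 0.19 and 1.89 ± 0.21 log2 units (limma standard error without the replicate block, n = 2 arrays per group, as for every ± on a rise below). With the block, which takes out the offset between experiments, these standard errors were 0.27, 0.17 and 0.19. Over the members they ran from 0.19 to 0.56 without the block and from 0.17 to 0.29 with it. For TGDS they were 0.52 and 0.19.

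BAX, which permeabilises the outer mitochondrial membrane, stood at 7.64 and 7.24 with p53 off, 8.93 and 8.65 with p53 on, and 7.75 and 7.50 after recovery. The rise of 1.35 ± 0.24 was a little under the members' median of 1.45, on a high control level. TNFRSF10B, the death receptor DR5 for the ligand TRAIL, stood at 6.53 and 6.29 with p53 off, 8.03 and 7.54 with p53 on, and 6.46 and 5.88 after recovery. TNFRSF10D, a decoy receptor that binds TRAIL without passing on the death signal, stood at 6.50 and 6.06 with p53 off, 7.69 and 7.53 with p53 on, and 6.13 and 6.24 after recovery. The rise was 1.37 ± 0.28 for the death receptor and 1.33 ± 0.23 for the decoy, and the mean share left was -17.4% and -6.8%. RASSF6, a Ras-association protein with a part in apoptosis, was also in this group at 1.43 ± 0.24.

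The ubiquitin pathway had 9 members, with mean rises between 1.19 and 2.29. The share of each functional group among all genes tested was not counted, so the sizes of the groups are not read as a result. MARCH3 and MARCH8, named MARCHF3 and MARCHF8 in RefSeq, are membrane-bound ubiquitin ligases that act on surface proteins. MARCH3 stood at 4.98 and 5.41 with p53 off, 7.23 and 7.73 with p53 on, and 5.05 and 5.18 after recovery, and all 5 of its probe sets rose by at least 1. MARCH8 stood at 5.32 and 5.71 with p53 off, 6.78 and 7.18 with p53 on, and 5.55 and 5.91 after recovery, with nearly the same rise in both experiments. NEURL2, a substrate adaptor of ubiquitin ligases, stood at 4.84 and 4.93 with p53 off, 7.13 and 7.03 with p53 on, and 5.10 and 4.94 after recovery. RNF19B, a RING-type ligase, stood at 6.47 and 6.66 with p53 off, 7.74 and 8.06 with p53 on, and 6.50 and 6.47 after recovery. Its recovery array lay above control in experiment 1 and below it in experiment 2, with 2.5% and -13.3% of the rise left. FBXO22, the F-box subunit of a ligase complex, stood at 7.03 and 7.61 with p53 off, 8.31 and 8.82 with p53 on, and 7.24 and 7.71 after recovery. Experiment 2 was the higher one in every group of FBXO22. The deubiquitinase gene USP2 rose by 1.59 ± 0.27, the ligase gene TRIM3 by 1.51 ± 0.19, the F-box gene FBXO32 by 1.26 ± 0.27 and YPEL5, a subunit of the CTLH ligase complex, by 1.19 ± 0.20. TRIM3 returned closest to control among these, with 0.8% and -0.7% of the rise left.

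Among 4 members that act on RNA, ZMAT3 had the largest rise of all 54. ZMAT3 is a zinc finger protein that binds RNA, AU-rich elements included, and it stood at 5.08 and 5.18 with p53 off, 8.23 and 7.86 with p53 on, and 5.44 and 5.66 after recovery, a rise of 2.92 ± 0.22 or 7.55-fold. Both recovery arrays stayed above both control arrays, with 11.6% and 17.7% left. TOB1, an antiproliferative protein that brings the CCR4-NOT deadenylase to transcripts, rose by 1.40 ± 0.40, with 10.2% and 24.3% left. PNRC1, a nuclear coactivator that also acts on decapping, rose by 1.36 ± 0.24, and TGS1, which makes the trimethylated cap of small nuclear RNAs, by 1.27 ± 0.24.

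Of 4 transcription regulators, PRDM1 and CASZ1 had the largest rises. PRDM1 encodes the repressor BLIMP1 and stood at 3.23 and 3.0 with p53 off, 6.10 and 5.57 with p53 on, and 3.62 and 3.40 after recovery. Its mean control level was under 3.62, as were those of HEPACAM, PLCL2 and C9orf72, so 4 of the 54 were under the limit in control. CASZ1, a zinc finger factor, stood at 5.28 and 5.10 with p53 off, 7.07 and 7.01 with p53 on, and 5.11 and 5.03 after recovery. Recovery lay below control in both experiments, by 0.17 and 0.07 log2 units. LDB1, a cofactor of LIM domain proteins, rose by 1.25 ± 0.20, and the zinc finger gene ZNF654 rose by 1.34 ± 0.48 with 23.9% and -57.0% left.

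Of 7 genes for receptors, adhesion and the cell surface, HEPACAM had the largest rise. HEPACAM, an immunoglobulin-family adhesion protein known from glia and liver, stood at 3.37 and 3.62 with p53 off, 6.38 and 5.93 with p53 on, and 4.03 and 3.98 after recovery. Both recovery arrays lay above both control arrays. The other 6 rose by between 1.14 and 1.56. They were TNFRSF14, the receptor HVEM of the lymphocyte regulator LIGHT, at 1.56 ± 0.19, the TGF-beta receptor gene TGFBR1 at 1.41 ± 0.30, ephrin-B1 (EFNB1) at 1.33 ± 0.28, the heparan sulfate enzyme gene NDST1 at 1.25 ± 0.21, nectin-4 (PVRL4) at 1.17 ± 0.19 and the catenin gene ARVCF at 1.14 ± 0.20. On the gene medians mean recovery lay above control for all 7, with shares left between 2.4% and 19.3%. With the mean of the probe sets instead, EFNB1 had -5.5% and -18.2% left in experiments 1 and 2, and TGFBR1 -1.1% and -26.3%. The others stayed above control in both, with up to 45.7% left for ARVCF in experiment 1. Of these genes PVRL4 alone met the rule that way.

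Signalling proteins numbered 7, led by PRKAB1 and MAPKBP1. PRKAB1, the beta-1 subunit of the energy sensor AMPK, stood at 7.19 and 7.40 with p53 off, 9.55 and 9.65 with p53 on, and 6.98 and 7.47 after recovery, a rise of 2.31 ± 0.24 with -8.7% and 3.5% left. MAPKBP1, a scaffold protein of JNK signalling, stood at 5.33 and 5.41 with p53 off, 7.41 and 7.55 with p53 on, and 5.39 and 5.25 after recovery, a rise of 2.11 ± 0.19 with 2.9% and -7.3% left. In both genes the recovery arrays fell on different sides of the control array of their experiment. RALGDS, an exchange factor of Ral, rose by 1.42 ± 0.32. The kinase gene RIOK3, the adaptor gene TRIP10 and the phosphatase gene DUSP14 rose by 1.11 ± 0.24, 1.14 ± 0.25 and 1.04 ± 0.21, the last being the smallest mean rise of the 54. TRIP10 stood at 7.34 and 7.73 with p53 off, 8.46 and 8.90 with p53 on, and 7.62 and 7.73 after recovery. DUSP14 stood at 6.89 and 7.11 with p53 off, 7.89 and 8.20 with p53 on, and 7.09 and 7.24 after recovery. In both genes, as in all 54 members, the p53 on arrays lay above every control and recovery array.

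Of 5 genes of membranes, lipids and vesicles, PGAP1 had the largest rise. PGAP1 removes the acyl chain from the inositol of GPI anchors and stood at 4.43 and 4.63 with p53 off, 6.90 and 6.45 with p53 on, and 4.60 and 4.73 after recovery, and 29 of its 30 probe sets rose by at least 1. BLOC1S2, a subunit of the BLOC-1 complex of lysosome-related organelles, stood at 6.48 and 6.67 with p53 off, 8.46 and 8.19 with p53 on, and 6.48 and 6.60 after recovery. All 9 of its probe sets rose by at least 1. PLCL2, a catalytically inactive relative of phospholipase C, stood at 3.47 and 3.57 with p53 off, 5.78 and 4.64 with p53 on, and 3.89 and 3.59 after recovery, so that its rise was 2.30 in experiment 1 and 1.07 in experiment 2. The channel gene TMEM63B rose by 1.73 ± 0.19 and C9orf72, a regulator of membrane traffic and autophagy, by 1.23 ± 0.20.

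The remaining 11 members rose by between 1.10 and 2.12. C13orf31, named LACC1 in RefSeq, a purine nucleoside enzyme described in macrophages, stood at 4.53 and 4.40 with p53 off, 6.66 and 6.50 with p53 on, and 4.81 and 4.65 after recovery. KIAA0247, named SUSD6 in RefSeq, stood at 5.62 and 5.89 with p53 off, 6.73 and 7.02 with p53 on, and 5.46 and 6.07 after recovery, with -14.1% and 15.6% left. CHCHD7, a small mitochondrial protein, had the lowest mean share left, with recovery below control by 0.42 and 0.33 log2 units. Others were SNN at 1.62 ± 0.21, KIAA0284 (the centrosomal protein CEP170B) at 1.57 ± 0.21, PLCXD2 at 1.38 ± 0.20, WDR8 (the centrosomal protein WRAP73) at 1.30 ± 0.40 and TGDS at 1.59 ± 0.52. RefSeq classes 3 members as pseudogenes, and these were counted without further description.

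Known p53 targets were compared through a list of 106 genes that does not hold the 27 names left out by the rule. The list was chosen with earlier results of these data known, and it holds 14 members whose rise the rule fixed. Its counts are a description and no independent support. Of 95 tested, 25 were called higher with p53 on in limma, or 60 with the replicate block, against 0.899% and 5.18% of all genes, and 0 were called lower. The list's median was 0.91, against 0.02 for all genes tested. A rise of at least 1 in both experiments was measured for 35 of the listed genes, of which 14 are members, 16 fell between the classes and 5 kept at least 50% of the rise in both experiments. The 5 were PLTP, a phospholipid transfer protein, ABCA12, a lipid transporter, the cytidine deaminase APOBEC3C, the lysosomal protein LAPTM5 and the oxidoreductase TP53I3. Their rises were 4.28, 4.39, 3.74, 3.16 and 2.19, with recovery minus control at 3.81, 2.31, 2.60, 2.57 and 1.64. The 14 members on the list were at 1.33 to 2.92 apart from FBXO22 at 1.24 and KIAA0247 at 1.12, and their recovery minus control lay between -0.24 and 0.42. Of the 27 left-out genes, 21 were called higher, or 25 with the block, with a median of 2.36. The 23 of them that met the rule had a median rise of 2.51, against 1.45 for the 54 members and 1.68 for the 25 genes that kept at least 50%. Each of these sets was chosen for a rise of at least 1 in both experiments.

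**Figure D3:**
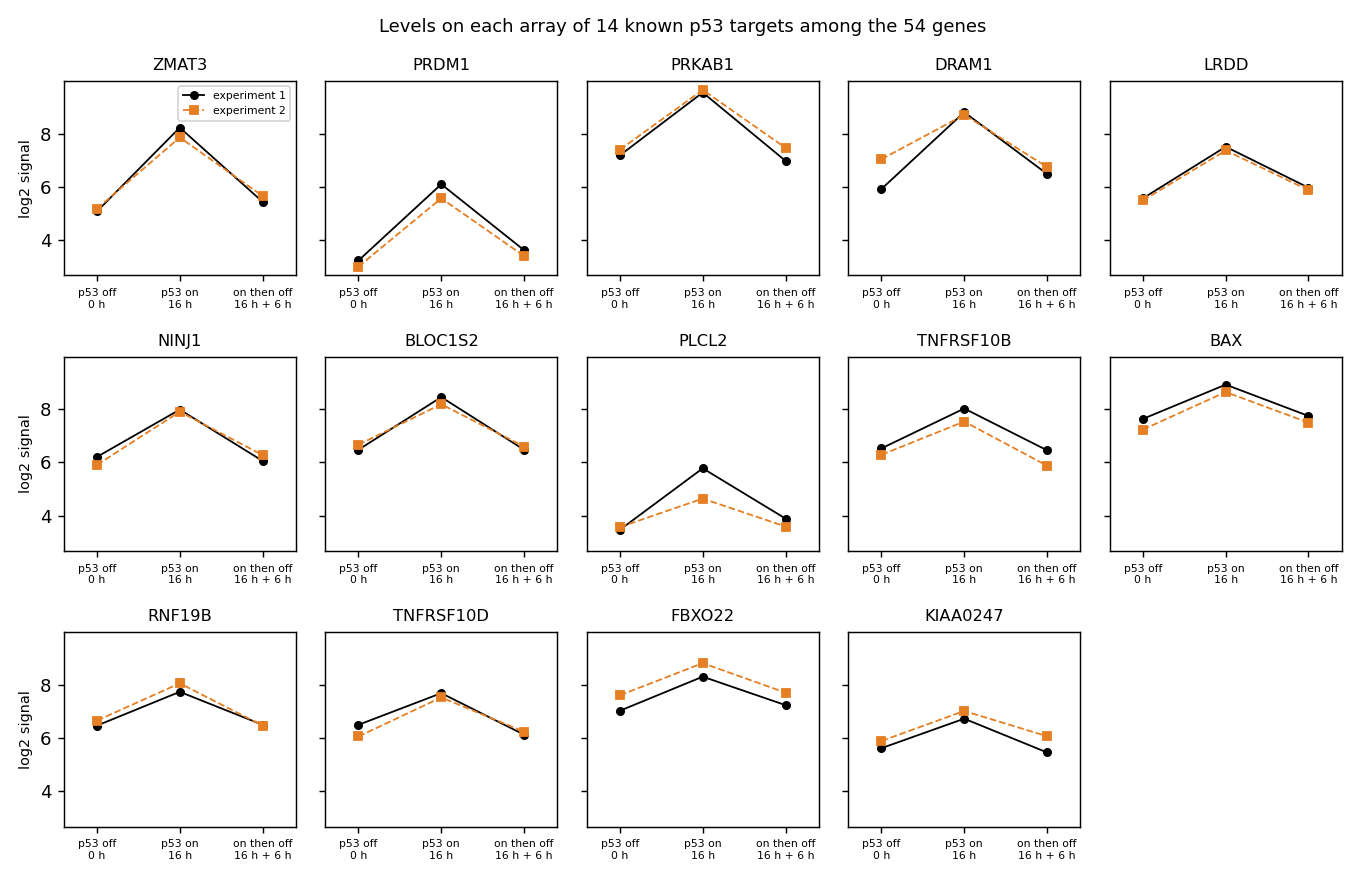
Each panel is 1 of the 14 members on the list of known p53 targets, with its log2 signal on the vertical axis and the 3 groups in time order on the horizontal axis; black circles are experiment 1 and orange squares experiment 2. Every panel peaks with p53 on, and the experiments part most in DRAM1 with p53 off and in PLCL2 with p53 on.

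The other lists are short. Among all 14018 genes tested, 197 rose by at least 1 in both experiments and 54 are members. Counts of 0 members in lists of this size are therefore not read as a result. A rise of at least 1 in both experiments was measured for 1 of 20 heat shock genes and 1 of 2 cold-inducible genes. Of 61 immediate-early and other short-lived transcripts tested, 0 are members and 2 rose by at least 1 in both experiments, TXNIP at 1.45 and MAFF at 1.46, and the list's median was 0.15. Of 18 NF-kB and cytokine genes, 0 are members and 0 were called in any group comparison without the block. At most 0.899% of all genes were called in any 1 direction there. With the block 1 was called, TNFAIP3, at 0.95 higher in recovery than with p53 on (limma adjusted p = 0.015). In that comparison 3.85% of all genes were called higher with the block. The cold-inducible genes CIRBP and RBM3 differed by 1.10 ± 0.23 and 1.06 ± 0.42 with p53 on, were called with the block alone (adjusted p = 0.00916 and 0.00694 in limma, against 0.0812 and 0.299 without it), and stood 0.18 and 0.68 above control after recovery. Heat shock genes had a median of -0.45 over 20 tested, and 0 are members. Of the 20, 1 was called higher and 1 lower, or 2 and 8 with the block. Of all 14018 genes tested, 126 were called higher and 82 lower, or 726 and 880 with the block. The heat shock gene called higher without the block was CRYAB, at 7.41, and it stood 6.53 above control after recovery. Temperature moved with the groups in the same way as p53, and its part in the members' rise was not tested.

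The probe sets behind each gene value did not all move alike. The 54 members had 663 probe sets, a median of 11.5 per gene, and 1 member rested on a single probe set. Of the 663, 493 rose by at least 1 on the mean of both experiments, or 74.4%, and 18 lay below control, or 2.71%, in 16 members. Over all genes tested 4.79% of probe sets rose by at least 1. In 5 members every probe set rose by at least 1. The deubiquitinase gene USP2 had probe sets between -0.52 and 4.40, with 12 of 18 at 1 or more, and CHCHD7 had 1 of 7 at 1 or more, between -1.47 and 1.20. Both were singled out after their values were seen. With the mean of the probe sets in place of the median, 32 of the 54 met the rule, and 22 did not. ZMAT3 then had a rise of 2.65 and 2.68 with 9.2% and 33.8% left, and BAX 1.31 and 1.26 with 26.8% and 22.7% left. CHCHD7 had a rise of 0.71 and 0.06.

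**Figure D4:**
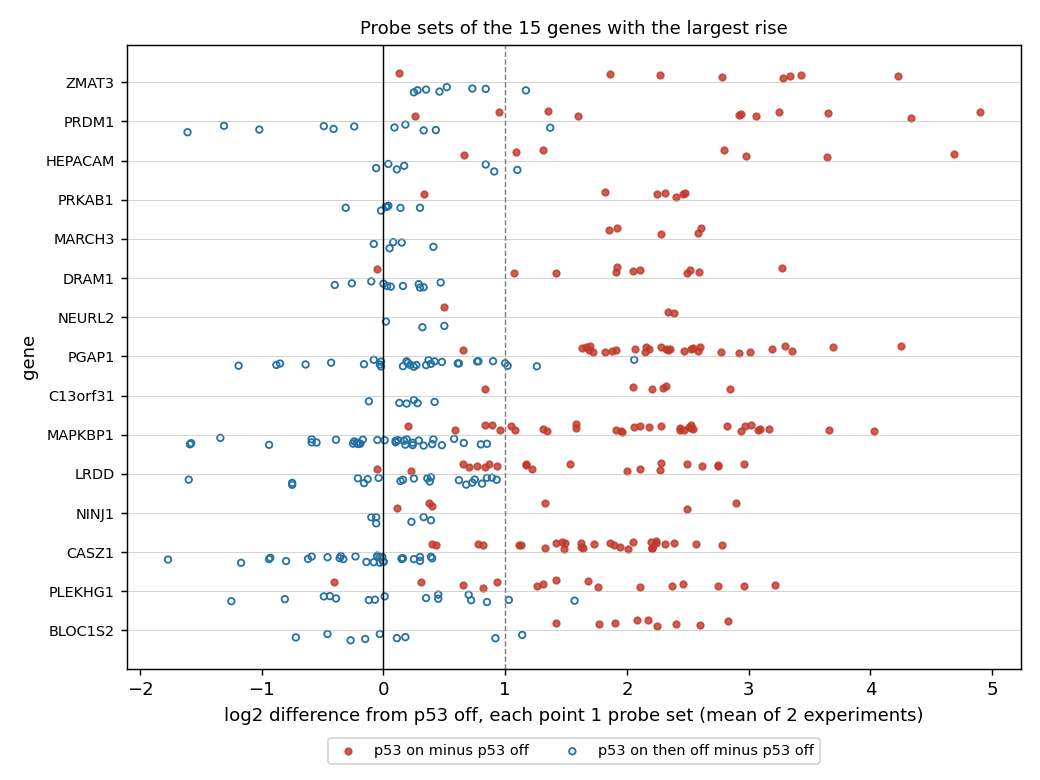
Each point is 1 probe set of the 15 members with the largest mean rise, placed by its log2 difference from control averaged over both experiments. Red filled points are p53 on minus control and blue open points are recovery minus control; the probe sets of PRDM1 span 0.26 to 4.90 with p53 on, and those of MARCH3 span 1.85 to 2.61.

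The difference in level between the experiments was not used by the rule and was tested in a limma model with group and experiment. The rule did set limits on the rise and the share left within each experiment. Those limits bear on how far the experiments can disagree in a member, and so on the error of this fit. The members' calls are therefore not fully independent of the rule. Of the 54 members, 9 were called at an adjusted p under 0.05, where 12.7% of all genes tested were called, so the members' share was near that of all genes. The count was 4 with no filter on low values, and it was also lower when any 1 array was left out, which leaves 1 array in a group. The share of all genes called in those fits is not given. Of the 9, 7 were lower in experiment 2, against 9.94% of all genes, and 2 were higher, against 2.72%. TGDS was lower by 1.02 log2 units (standard error 0.15, limma adjusted p = 0.0045) and CHCHD7 by 0.97 (standard error 0.14, adjusted p = 0.00357). WDR8, ZNF654 and RALGDS were lower as well, by 0.75, 0.86 and 0.57, with adjusted p of 0.0151, 0.0223 and 0.0301. TOB1 was higher by 0.76 ± 0.14 (standard error, 3 arrays per experiment, limma adjusted p = 0.0107) and FBXO22 by 0.52 ± 0.14 (adjusted p = 0.0408). In each of these genes the experiments differed in the same direction in all 3 groups. TGDS, which encodes a protein of the dehydratase family, stood at 5.53 and 4.76 with p53 off, 7.38 and 6.09 with p53 on, and 5.50 and 4.49 after recovery. CHCHD7 stood at 5.09 and 4.09 with p53 off, 6.18 and 5.20 with p53 on, and 4.67 and 3.77 after recovery. In both genes experiment 2 lay below experiment 1 in every group. WDR8 stood at 5.53 and 4.99 with p53 off, 6.90 and 6.22 with p53 on, and 5.73 and 4.70 after recovery. ZNF654 stood at 4.32 and 3.97 with p53 off, 5.93 and 5.04 with p53 on, and 4.70 and 3.36 after recovery, and RALGDS at 5.19 and 4.71 with p53 off, 6.71 and 6.04 with p53 on, and 5.36 and 4.82 after recovery. These 3 genes too were lower in experiment 2 within every group. TOB1, higher in experiment 2 in every group, stood at 7.44 and 8.04 with p53 off, 8.72 and 9.55 with p53 on, and 7.57 and 8.41 after recovery. The other called members are 2 of the pseudogenes. The size of the rise could not be tested between experiments, since each has 1 array per group, and it was larger in experiment 1 for 34 of the 54 members and for 116 of the 197 induced genes.

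**Figure D5:**
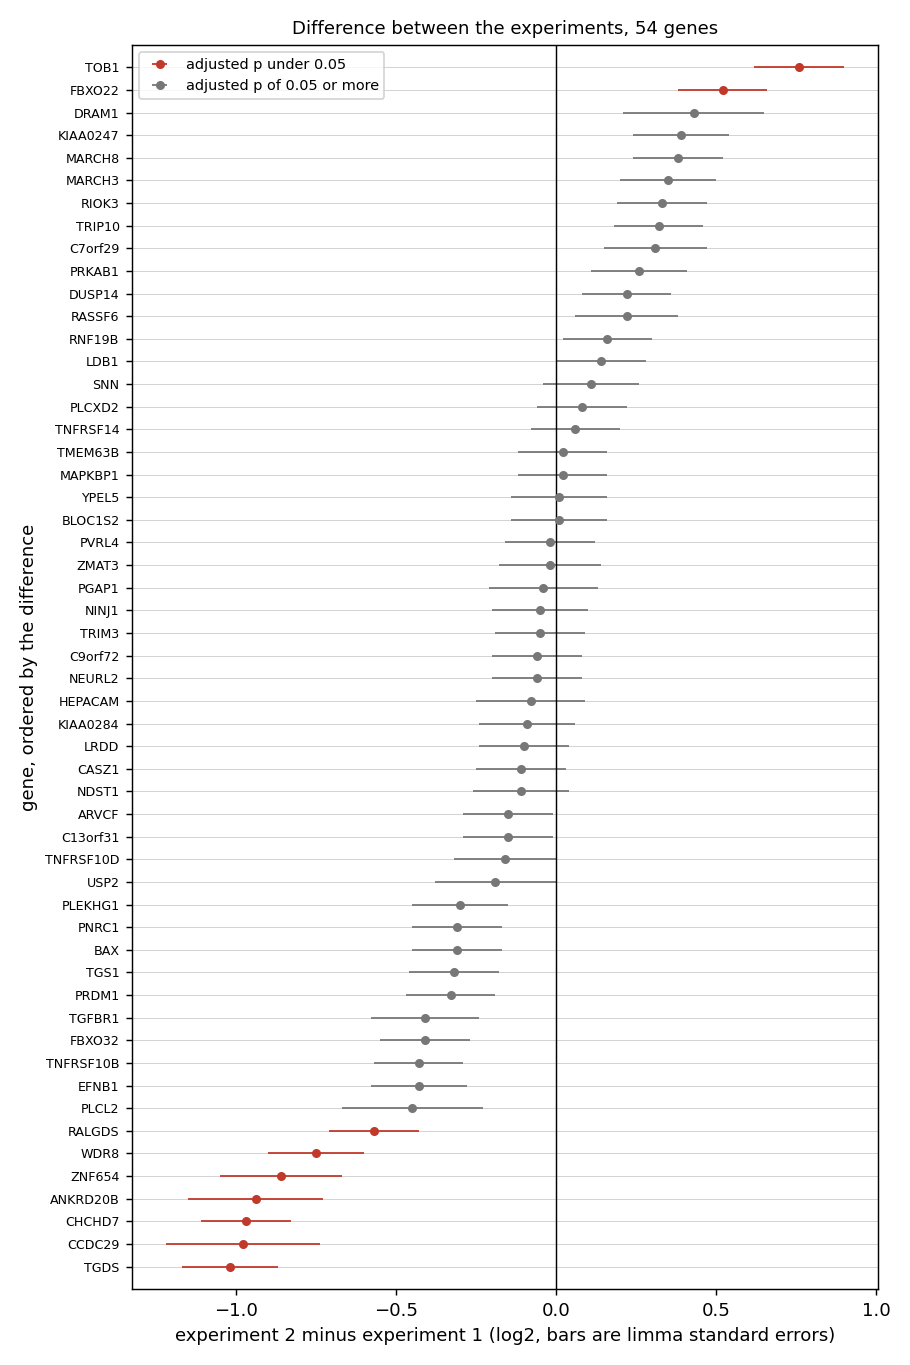
Each row is 1 member, placed by the log2 difference of experiment 2 minus experiment 1 over all 3 groups, with bars of 1 limma standard error; red marks an adjusted p under 0.05. The 7 called members on the left lie between -1.02 and -0.57, and TOB1 and FBXO22 on the right at 0.76 and 0.52.

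Promoter sequence was not used by the rule either. RefSeq windows on GRCh38.p14, 250 bases before to 50 after each annotated start, were matched for 38 of the 54 members. They were searched on both strands for the p53 half-site consensus of 10 bases, which reads the same on both strands, for pairs of half-sites up to 13 bases apart, and for 3 short motifs. The core CATG can lie inside a half-site. The TATA box was searched as the letters TATAAA. The letters CCAAT are the core of the site bound by the factor NF-Y. A half-site was found in 3 of 38 members (7.89%) and in 7.45% of the tested genes with a window, and in 8.06% of all promoters. An exact pair was in 0 of 38 members and in 0.0366% of all promoters. A pair with up to 2 bases off the consensus outside the cores was a setting added after the data were seen. It was in 2 of 38 members (5.26%), in 1.63% of tested genes and in 1.81% of all promoters. Of left-out targets that met the rule and had a window, 15.8% held such a pair. A gene counted if any of its windows matched. Members had 1.61 windows each on average, tested genes 1.43 and all promoters 1.29, so more sequence was searched per member. TATAAA was in 1 member (2.63%), in 9.22% of tested genes and in 14% of all promoters, CATG in 50%, 53.6% and 60.6%, and CCAAT in 39.5%, 41.9% and 39.7%. Of the 19 left-out targets that met the rule and had a window, 5 held a half-site (26.3%) and 1 an exact pair. Of 17 genes that kept at least 50% of the rise, 2 held a half-site (11.8%) and 5 held TATAAA (29.4%). The median GC content was 65.5% in members and 64.7% in tested genes. The matches were few, and a match is not a measured binding site.

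The stretches around the upstream matches are shown because all 4 genes share the pattern of the rule, with the matched half-sites in capitals, 5′ to 3′ on the strand of the gene. The printed stretches, flanks included, lie for HEPACAM at chr11:124936128-124936187 on the minus strand, for RALGDS at chr9:133129507-133129566 on the minus strand, for MAPKBP1 at chr15:41774234-41774295 on the plus strand and for MARCH8 at chr10:45535399-45535469 on the minus strand.
HEPACAM: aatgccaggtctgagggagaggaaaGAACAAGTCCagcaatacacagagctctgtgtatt
RALGDS: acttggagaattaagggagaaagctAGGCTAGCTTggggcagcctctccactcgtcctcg
MAPKBP1: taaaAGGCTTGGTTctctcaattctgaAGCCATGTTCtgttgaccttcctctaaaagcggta
MARCH8: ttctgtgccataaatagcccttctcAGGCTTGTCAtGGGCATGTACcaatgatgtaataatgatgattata
The first pair hold 1 exact half-site each, 115 and 140 bases before the start at their first base. MAPKBP1 and MARCH8 hold pairs that are 2 bases off the consensus in all, with spacers of 13 and 1 bases. The third exact half-site, in TGFBR1, spans the annotated start and is not shown.

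Position along the chromosome was compared by the order of protein-coding genes in RefSeq. Of 49 members with a measured adjacent gene, 1 lay next to a gene with a rise of at least 1 in both experiments (2.04%), against 2.21% of 12302 tested genes. That member was MARCH8, whose neighbour ALOX5, the 5-lipoxygenase gene, had a rise of 1.49.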

How the data were processed

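Total RNA from 6 samples of HT29-tsp53 cells was measured on Affymetrix Gene 1.0 ST arrays. The deposited values are log2 signals for each probe set, as their spread from -0.85 to 13.14 shows. For the authors' summary and normalization steps, the method is not given in the sources used here. In all there were 257430 probe sets, and gene values used the 224320 with a single symbol. The fit (limma 3.58.1, R 4.3.3) took all 6 arrays with the 3 groups as a factor, adjusted by Benjamini-Hochberg over the 14018 genes above 3.62. The experiment number was added as a replicate block as an alternative. It was taken to pair the arrays because the labels name it as an experiment; same-numbered arrays deviated together, with correlations of 0.496, 0.63 and 0.552. The fits were also run on simulated data with independent noise on each array. Same-numbered arrays shared no offset there, so those runs cannot show how either fit performs on paired arrays.

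The members, lists and tests were chosen with earlier results of these data known. Genes were named by a rule that takes the 15 largest rises, members on a list, members called between experiments and the 3 genes on each side of each threshold; others are named within their functional group, after their values were seen. Pseudogenes were counted and not described, as the rule states, and the values of 1 other gene that it names are not reported here. Symbols are those of the array annotation, and 11 older ones were matched through RefSeq synonyms. The number of arrays limits the precision.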

Additional observations from a re-analysis of the deposited data

How the results depend on the processing

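All 54 genes were called in both comparisons with p53 on under the replicate block, against 34 and 16 without it. Called members with p53 on numbered 20 with no filter on low values and 13 with only the groups compared. They were also fewer when any 1 array was left out, which leaves 1 array in a group. For recovery against p53 on, 30 were called with the mean of the probe sets, 0 with only the groups compared and fewer without any 1 array. Shares of all genes called are given only for the fits with and without the block. Under the other settings a loss over all genes cannot be told from a loss in the members. For recovery against control, 0 were called under each of the alternatives run. For experiment 2 minus experiment 1, 9 were called, 4 with no filter on low values and 4 to 6 without 1 array. No named gene changed sign in the comparisons with p53 on. The rule itself gave 182 genes on experiment 1 alone, 118 on experiment 2 alone, 19 with under 10% of the rise left, 84 with under 40%, 17 with a rise of at least 1.5 and 270 with at least 0.5. With the mean of the probe sets it gave 48, of which 32 were among the 54, and with quantile normalization 56, of which 52 were. The median share left lay between 3.3% on the linear scale, a setting added after the data were seen, and 8.6% in experiment 1 alone.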
